A study of Homo sapiens with 44 samples.

Results

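Chromatin accessibility was measured by ATAC-seq over the HOX genes of Ccd18-Co, a human colon fibroblast line, either unstimulated or exposed for a day to a single cytokine after serum starvation. Every peak whose deposited gene name was HOXA, HOXB, HOXC or HOXD followed only by a number was taken, which gave 278 of 407383 peaks. These were 86 HOXA, 88 HOXB, 40 HOXC and 64 HOXD peaks, and all 39 genes had at least 1. The 44 libraries formed 11 groups of 4: unstimulated, IL1B at 0.1 ng/ml, and TNF, TGFB1, OSM, IL13, IFNG, IFNA, IL6, IL17A and IL22 at 10 ng/ml each. The IL1B dose is that of the study's methods, and a figure legend of the study gives a lower one. All groups shared this 1 line, so they describe one genetic background in culture, and nothing in the labels says that the 4 libraries of a group came from separate cultures. P-values therefore measure the spread between these libraries, which may be technical. In bulk samples, a larger share of cells with an open site cannot be told apart from a site that is open more often in every cell.

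HOX genes encode homeodomain transcription factors that set position along the body axis during development, and adult fibroblasts keep a HOX code that reflects the site they came from. Within each cluster the genes lie in the order of their number, with low-numbered (anterior) genes at the 3′ end and high-numbered (posterior) genes at the 5′ end. HOXA13 and HOXD13 are the posterior genes known from hindgut and limb patterning. In cells that do not use a HOX gene, the locus is typically held in a compact state by Polycomb proteins, and the clusters also give rise to long non-coding RNAs such as HOTAIRM1, HOTTIP and HOTAIR.

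The sequences below come from the hg38 reference and show the central 300 bases, plus strand, of 5 called HOX peaks. They were called for several cytokines or had the largest changes among peaks with a level of at least 1, leaving out those over an untranslated region. Capitals mark a match to AP-1 (TGANTCA) or SMAD (CAGACA), where N is any base; NF-kB (GGANTTTCC), STAT (TTCNNNGAA), PBX-HOX (TGATTNAT) and posterior HOX (TTTATNG) motifs were also searched on both strands and had no match in these windows.
HOXA2-named peak, chr7:27111310-27111609, intron of HOXA3 and HOXA-AS2: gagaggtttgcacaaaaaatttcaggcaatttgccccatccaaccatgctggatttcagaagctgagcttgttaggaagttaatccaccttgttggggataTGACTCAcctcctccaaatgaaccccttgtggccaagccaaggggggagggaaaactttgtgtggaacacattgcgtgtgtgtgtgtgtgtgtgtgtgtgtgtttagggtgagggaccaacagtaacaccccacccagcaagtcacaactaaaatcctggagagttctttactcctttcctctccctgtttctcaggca
HOXA9-named peak, chr7:27173491-27173790, coding exon of HOXA10: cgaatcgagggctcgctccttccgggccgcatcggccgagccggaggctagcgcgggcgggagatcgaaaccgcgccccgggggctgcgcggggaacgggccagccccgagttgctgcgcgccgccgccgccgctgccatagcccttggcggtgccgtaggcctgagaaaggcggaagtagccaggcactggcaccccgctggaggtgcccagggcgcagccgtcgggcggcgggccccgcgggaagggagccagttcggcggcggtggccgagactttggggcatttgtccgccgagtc
HOXA13-named peak, chr7:27201393-27201692, exon of HOTTIP: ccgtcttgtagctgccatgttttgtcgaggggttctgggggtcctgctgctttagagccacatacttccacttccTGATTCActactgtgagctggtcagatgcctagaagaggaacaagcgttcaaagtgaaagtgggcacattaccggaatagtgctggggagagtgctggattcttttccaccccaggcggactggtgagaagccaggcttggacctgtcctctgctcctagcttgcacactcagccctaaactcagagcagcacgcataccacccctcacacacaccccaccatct
HOXB1-named distal peak, chr17:48503764-48504063, intergenic: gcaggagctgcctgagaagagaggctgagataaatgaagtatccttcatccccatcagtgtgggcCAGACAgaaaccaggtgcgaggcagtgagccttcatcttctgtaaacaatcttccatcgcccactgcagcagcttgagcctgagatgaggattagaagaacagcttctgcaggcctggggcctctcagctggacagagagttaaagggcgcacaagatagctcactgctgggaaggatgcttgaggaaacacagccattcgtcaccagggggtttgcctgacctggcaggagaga
HOXC13-named distal peak, chr12:53867683-53867982, intron of ENSG00000286069: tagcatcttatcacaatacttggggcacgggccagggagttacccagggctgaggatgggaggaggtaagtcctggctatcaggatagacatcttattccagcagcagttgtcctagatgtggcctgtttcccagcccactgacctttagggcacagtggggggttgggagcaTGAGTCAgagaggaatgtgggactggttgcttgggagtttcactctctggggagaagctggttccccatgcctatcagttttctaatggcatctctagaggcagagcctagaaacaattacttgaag

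Values below are coverage per Mb: the bases of read coverage over a 500-base peak per Mb of coverage over all peaks of the library, after a composition factor. Peak coverage totalled 149 to 823 Mb per library (median 416), and 328.6 to 524 Mb in the 4 unstimulated libraries, where 1 coverage per Mb equalled 4.39 to 7.05 reads of 75 bases. A level of 3 reads equalled 0.426 to 0.683 coverage per Mb in those libraries, so levels below it cannot be told from none. Fibroblast identity was checked at promoter-class peaks, which 7 of the 9 listed fibroblast markers had. These 7 ranged from 2.12 ± 0.45 (VIM, SD, n = 4) to 24.1 ± 2.51 (COL1A1). The muscle genes ACTA2 (9.69 ± 1.61) and MYH11 (7.09 ± 1.89) were also open, and DES stood at 1.07 ± 0.81. Only 2 of the 6 listed epithelial genes had such a peak. The keratin gene KRT8 stood at 4.57 ± 1.21, above VIM, and ELF3 at 1.44 ± 0.48. Endothelial genes ranged from 0.542 ± 0.384 at VWF to 1.90 ± 0.82 at CDH5, which is near VIM. The monocyte gene CD14, the only 1 of the 5 listed immune genes with such a peak, stood at 0.792 ± 0.097. HOX peaks held 0.0524% to 0.0614% of the peak coverage of each library. The gene name of a peak does not always match the gene body under it: for 151 of the 278 peaks the named gene covered the peak's centre or started within 2 kb of it, and for 82 the centre lay in the body of other HOX genes only. Both are given for some of the peaks described here, and the others carry the deposited name only. That name alone does not place a peak in the gene: the HOXA9 promoter peak described below has its centre in an intron of HOXA10.

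The first question was which stretches of each cluster were open in unstimulated fibroblasts. By medians HOXA was the most accessible cluster and HOXB the next, by the share of peaks at or above 1 HOXB came first, and HOXC and HOXD were near the detection limit over most of their length. Over the 27 promoter-class peaks of HOXA the median was 3.11 coverage per Mb, close to the median of 2.91 over all 29105 tested promoter-class peaks. The same median was 1.05 for the 15 HOXB, 0.901 for the 10 HOXC and 0.574 for the 21 HOXD promoter-class peaks. Of these peaks, 14 of 27 in HOXA, 4 of 15 in HOXB, 0 of 10 in HOXC and 1 of 21 in HOXD exceeded the median of all promoter-class peaks. HOXB was more open inside its genes than at its promoters: 29 of its 31 intronic and 12 of its 15 exonic peaks exceeded the medians of their class over all peaks (0.798 and 1.12). A level of at least 1 was reached by 51 of 86 HOXA (59.3%), 62 of 88 HOXB (70.5%), 11 of 40 HOXC (27.5%) and 13 of 64 HOXD peaks (20.3%), against 42.8% of all peaks. These shares are descriptions, since peaks of a cluster share their libraries and lie next to each other.

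Along HOXA, accessibility came in blocks. The HOXA2 promoter peak at chr7:27102483-27102982 stood at 3.82 ± 0.61, and 13 of the 16 HOXA2-named peaks, which reach into HOXA3, were at 1 or above. HOXA4, another anterior gene, had its promoter peak at 7.57 ± 1.44. A closed stretch followed at chr7:27137765-27147255, where 13 consecutive HOX peaks, from a HOXA3-named to a HOXA5-named one, lay between 0.217 and 0.717. None of the 7 HOXA5-named peaks reached 1 (0.217 to 0.606), and the highest HOXA5 promoter-class peak, chr7:27143531-27144030, measured 0.348, 1.19, 0.367 and 0.284 in unstimulated libraries 1 to 4. Only library 2 of these was clear of the 3-read level. In the next 5.3 kb all 7 HOXA6-named peaks were open, with chr7:27150732-27151231 at 13.5 ± 2.42 and chr7:27152454-27152953 at 11.8 ± 1.54. HOXA7 followed with 9.54 ± 1.14 at its promoter peak chr7:27156500-27156999. From HOXA9 to HOXA13, 21 of 24 peaks reached 1, with a median of 3.71, against 0.680 for the 25 peaks of HOXA5 to HOXA7. The highest HOX-named peak was the HOXA11 promoter, chr7:27185067-27185566, which overlaps HOXA11-AS, at 15.7, 14.1, 15.7 and 13.4 in the 4 unstimulated libraries. HOXA13, the most posterior gene, stood at 9.79 ± 1.15 at chr7:27200014-27200513. HOXA9 (7.23 ± 1.05) and HOXA4 (7.57 ± 1.44) differed by less than their SDs, as did HOXA13 and HOXA7.

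HOXB had open sites from HOXB2 to HOXB9 and low levels at its posterior end. The HOXB5 promoter peak, chr17:48593828-48594327, was the highest HOXB-named one at 7.50, 8.17, 7.85 and 8.52, a narrow spread. A peak within the HOXB span that carries another name reached 17.8. The HOXB8 peak over its own start site was the lowest of the best promoter peaks, at 0, 0.698, 0 and 0.403, although the exonic HOXB8-named peak chr17:48612801-48613300 stood at 5.01 ± 1.00. HOXB2 (3.37 ± 0.24), HOXB3 (4.71 ± 0.90) and HOXB9 (1.98 ± 0.64) had open promoter peaks, and HOXB4 had its open sites in the gene body, at 7.27 ± 1.58 in chr17:48577271-48577770. HOXB13, the posterior gene that lies apart from the rest, had 3 peaks with a highest level of 1.43 ± 0.40. Beyond the 3′ end of the cluster lay a group of HOXB1-named intergenic peaks, the highest of them chr17:48503664-48504163 at 7.36 ± 1.67, while HOXB1 itself had no promoter-class peak.

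HOXC and HOXD were low, with single exceptions. In HOXC the promoter peak of HOXC10, a posterior gene, was the highest, at 1.85, 2.06, 1.27 and 2.01, and that of HOXC9 the lowest, at 0.440, 0.556, 0.905 and 1.02. The most open HOXC site was intronic, the HOXC8-named chr12:54005875-54006374 within HOXC6, at 4.04 ± 0.60. In HOXD the HOXD12-named promoter-class peak chr2:176097489-176097988 stood out at 5.94, 5.46, 4.70 and 6.11, although it lies 2057 bases from the nearest HOXD12 start. HOXD11 had an exonic peak at 2.97 ± 0.43, HOXD13 an exonic peak at 2.51 ± 1.00, and HOXD1 a promoter peak at 2.25 ± 0.73. Between HOXD10 and HOXD9, 20 consecutive peaks over 15.3 kb lay below 1, and the highest HOXD10 promoter-class peak measured 1.03, 0.789, 0.704 and 0.023. Paralogs with the same number had unlike levels. Group 13 stood at 9.79 ± 1.15 in HOXA, 1.08 ± 0.48 in HOXC and 1.06 ± 0.44 in HOXD by their best promoter peaks, and group 9 at 7.23 ± 1.05, 1.98 ± 0.64, 0.731 ± 0.278 and 1.56 ± 0.40 in HOXA, HOXB, HOXC and HOXD.

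Non-coding genes of the clusters were also examined. Of a list of 17, 14 had peaks (101 in all), with a median of 1.23. HOTAIRM1, at the 3′ end of HOXA, had the most open promoter peak of the list, 17.6 ± 1.56, and ranged from 11.5 to 24.7 over the 44 libraries. HOXA10-AS (7.04 ± 1.87) and HOXB-AS1 (6.98 ± 1.15) were also open. HOXA-AS2 was lower (1.34 ± 0.78), near HOXC-AS1 (1.38 ± 0.79) in HOXC. HOTAIR, which also lies in HOXC, stood at 0.820 ± 0.336, and HAGLR and HOXD-AS2, which lie in HOXD, at 0.754 ± 0.577 and 0.463 ± 0.282. Peaks inside the cluster spans that carry names other than HOX genes had medians near those of the HOX-named ones, 2.90 against 2.90 in HOXA, 2.19 against 1.98 in HOXB, 0.664 against 0.755 in HOXC and 0.570 against 0.583 in HOXD.

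The second question was whether any cytokine changed this layout. By sums and by medians over all peaks, HOXA and HOXB stood above HOXC and HOXD in every library: the summed coverage of HOXA exceeded that of HOXB in 44 of 44 libraries, and the median over all peaks of HOXA and of HOXB exceeded those of HOXC and HOXD in 44 of 44. By the same medians HOXA exceeded HOXB in 39 libraries and HOXC exceeded HOXD in 39, so those neighbours in the order were not separated in every library. The order of HOXC and HOXD also depended on the measure, since by summed coverage, to which HOXD gives more peaks, HOXC exceeded HOXD in 1 library. By promoter medians HOXA exceeded HOXB in 44 libraries, HOXB exceeded HOXC in 32, HOXC exceeded HOXD in 27, and both HOXA and HOXB exceeded both HOXC and HOXD in 27. At the level of single peaks, 107 of 278 had a group mean of at least 1 in all 11 groups, 90 stayed below 1 in all 11, and 81 were mixed. The 13 peaks of the closed HOXA stretch had group means between 0.063 and 1.02 over all groups. As a description over 278 peaks, the log2 profile of an unstimulated library correlated with that of another unstimulated library at r = 0.824 to 0.866, and with libraries of the cytokine groups at a median r between 0.797 (TGFB1) and 0.869 (OSM); these values share the peaks' fixed differences in openness and the unstimulated libraries.

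**Figure D1:**
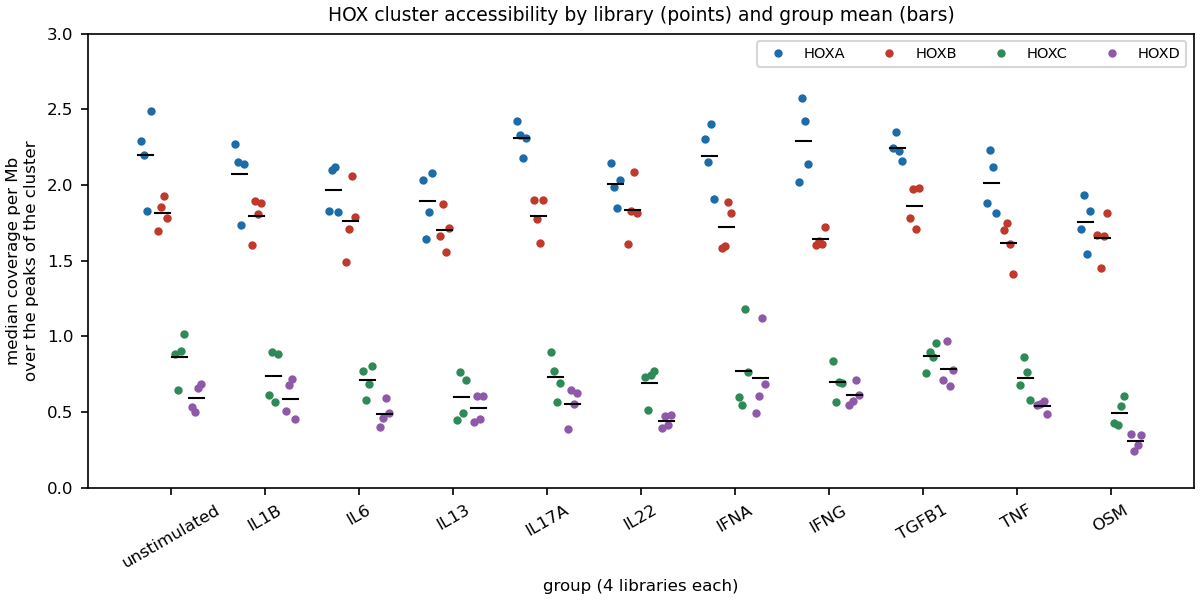
Median coverage per Mb over the peaks of each HOX cluster in each library (points, 4 per group) with group means (black bars), for the 11 groups along the horizontal axis. HOXA and HOXB lie between 1.41 and 2.58 in every library and HOXC and HOXD between 0.243 and 1.18, with the lowest HOXC and HOXD means under OSM.

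OSM, an IL-6 family cytokine, gave the lowest medians of the 11 groups for HOXA, HOXC and HOXD. The HOXD median was 0.309 ± 0.055 under OSM (range 0.243 to 0.358) against 0.595 ± 0.091 in unstimulated libraries (0.501 to 0.684), and that of HOXC 0.497 ± 0.095 (0.412 to 0.609) against 0.862 ± 0.156 (0.645 to 1.02). The libraries of the groups did not overlap for either cluster, but weak peaks across the genome had a like shift: the median log2 change under OSM over the 238474 tested peaks with a mean below 1 was -0.35, and that over the 142 such HOX peaks -0.38. For HOXA the OSM and unstimulated medians, 1.75 ± 0.17 and 2.2 ± 0.28, overlapped. TGFB1, the main profibrotic cytokine, gave the opposite sign in weak peaks, with a median change of 0.20 in HOX peaks below 1 and 0.25 in all such peaks. Over all tested peaks the median change was -0.22 for OSM and 0.15 for TGFB1, and it lay between -0.08 and 0.03 for the other cytokines.

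Tests of single peaks found few changes. By limma's moderated F test over the 11 groups, 28 of 278 HOX peaks (10.1%) differed at an adjusted p under 0.05, beside a background of 21.1% of all 407176 tested peaks. By class, 3 of 73 promoter peaks differed (4.11%, beside 22.4% of all promoter-class peaks), 7 of 49 exonic (14.3%, beside 19.1%), 9 of 105 intronic (8.57%, beside 21.0%) and 9 of 51 distal peaks (17.6%, beside 21.4%). The share depended on level, so it is also given at matched level: among peaks with a mean of 2 to 4, 8 of 45 HOX peaks differed (17.8%, beside 41.4%), and among those of 4 to 8, 13 of 41 (31.7%, beside 53.0%). By cluster, 12 of 86 HOXA, 13 of 88 HOXB, 2 of 40 HOXC and 1 of 64 HOXD peaks differed. Of the 37 HOX-named peaks outside the cluster spans 8 differed, and 6 of these were among the 16 HOXB1-named peaks there.

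Against unstimulated libraries, 15 HOX peaks were called for at least 1 cytokine (5.40%, beside 11.8% of all tested peaks), in 21 peak-by-cytokine calls out of 2780. All cytokines share the same 4 unstimulated libraries, so the contrasts are not independent. Among the 19 HOX promoter-class peaks with an unstimulated level of at least 3, which include HOXA2, HOXA4, HOXA6, HOXA7, HOXA9, HOXA11, HOXA13, HOXB2, HOXB3, HOXB5 and HOXD12, only a HOXA9 peak under IFNG passed; the log2 changes of the 19 ranged from -0.85 to 0.45 over the 10 cytokines, with a median 95% interval half-width of 0.48. Over all 278 peaks that half-width was 0.72, so a change smaller than this would usually not be detectable here. The interval is not adjusted for the number of peaks tested, so larger changes could also be missed.

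**Figure D2:**
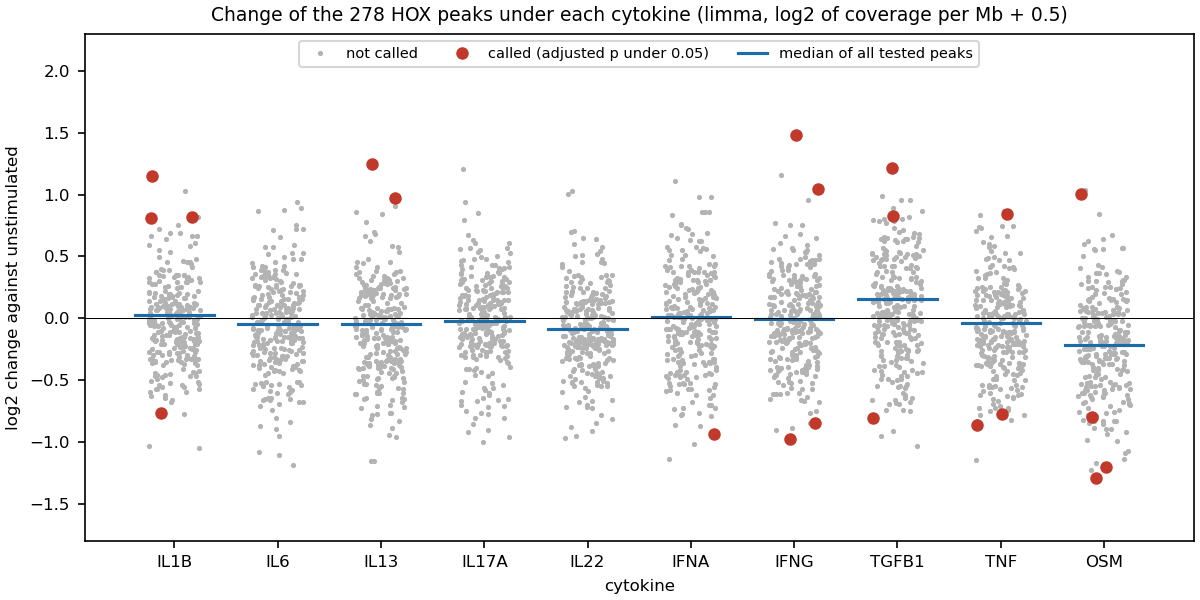
Log2 change of each of the 278 HOX peaks against unstimulated libraries (vertical axis) for the 10 cytokines (horizontal axis); grey points were not called, red points were called at an adjusted p under 0.05, and blue bars give the median of all tested peaks. Each cytokine has at most 4 red points, IL6, IL17A and IL22 have none, and the blue bars for TGFB1 (0.15) and OSM (-0.22) are the farthest from 0.

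IL1B, the inflammatory cytokine interleukin-1β, raised 3 HOX peaks and lowered 1, beside 1.72% raised and 1.79% lowered of all peaks. The distal HOXC13-named peak chr12:53867583-53868082, 70999 bases from the gene, measured 3.49, 3.55, 4.27 and 2.65 under IL1B against 0.896, 1.38, 1.97 and 1.05. The groups did not overlap (log2 change 1.15 ± 0.35 SE, adjusted p = 0.0403). The peak carries an AP-1 match, and the call did not hold with loess scaling, a pseudocount of 0.1 or a GC correction, which left the log2 change at 1.11 (adjusted p = 0.0512). Each of the 4 IL1B calls was lost when 1 of several single libraries was left out, and 0 of them remained without unstimulated replicate 2 or without IL1B replicate 1.

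The HOXA9-named peak in a coding exon of HOXA10, chr7:27173391-27173890, was raised under IL13, IL1B, TGFB1 and TNF. It measured 4.32, 4.60, 7.35 and 5.64 under IL13, 5.37, 4.24, 4.40 and 5.27 under IL1B, 4.64, 6.27, 5.21 and 3.48 under TGFB1, and 3.62, 4.34, 5.72 and 6.25 under TNF, against 3.21, 2.05, 4.05 and 1.37 in unstimulated libraries. The IL13 and IL1B libraries all lay above the unstimulated ones, while those of TGFB1 and TNF overlapped them. The log2 changes were 0.97 ± 0.25 (adjusted p = 0.0151), 0.82 ± 0.25 (0.0381), 0.82 ± 0.25 (0.0385) and 0.84 ± 0.25 (0.0253). The unstimulated group had the lowest mean of all 11 groups at this peak, and the estimates for the other cytokines ranged from 0.39 (IL17A) to 0.89 (IL6) without passing the test. None of the 4 calls held without unstimulated replicate 2 or without unstimulated replicate 4, the 2 lowest libraries. At 74.8% GC it is a GC-rich peak, it has no match to the motifs searched, and the IL1B call was lost with only the groups compared and with a GC correction, which left the log2 change at 0.74 (adjusted p = 0.0877). The TGFB1 call was lost with library totals and with only the groups compared.

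The distal HOXB1-named peak chr17:48503664-48504163, 26997 bases from the nearest HOXB1 start, was lowered under IFNA, TNF and IL1B. Unstimulated libraries stood at 6.75, 9.28, 8.0 and 5.40, against 4.63, 4.78, 3.46 and 1.96 under IFNA, 4.17, 4.46, 2.40 and 4.35 under TNF, and 4.29, 4.63, 4.34 and 3.10 under IL1B. No library of these 3 groups reached the lowest unstimulated one. Estimates were negative for all 10 cytokines, the smallest at -0.03. The log2 changes were -0.94 ± 0.23 (adjusted p = 0.0141), -0.86 ± 0.23 (0.00903) and -0.76 ± 0.23 (0.0351). It was the single call for IFNA, a type I interferon (0 raised and 1 lowered, beside 0.513% and 0.334% of all peaks). All 3 calls held in each of the alternatives that kept every library, and all 3 were lost without unstimulated replicate 2.

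A neighbouring HOXB1-named site 33616 bases from the nearest HOXB1 start moved in the other direction under TGFB1. The peak chr17:48497045-48497544 measured 6.71, 4.78, 5.04 and 4.92 under TGFB1 against 1.79, 1.38, 2.45 and 2.58, with no overlap (log2 change 1.22 ± 0.30, adjusted p = 0.00379). This call held in all 19 alternatives, with log2 changes between 0.87 and 1.37 and a highest adjusted p of 0.0357. TGFB1 raised 2 and lowered 1 HOX peaks, beside 1.98% and 1.52% of all peaks. The lowered one was the HOXB3-named intronic peak chr17:48587478-48587977, at 2.07, 4.61, 1.75 and 2.99 against 4.98, 5.11, 5.76 and 4.47, where 1 TGFB1 library overlapped (-0.80 ± 0.24, adjusted p = 0.0314). That call was lost when any of 5 single libraries was left out and with quality weights.

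OSM raised 1 and lowered 3 HOX peaks, beside 1.55% and 1.29% of all peaks. The raised one, the HOXA2-named peak chr7:27111210-27111709 in an intron of HOXA3 and its antisense gene HOXA-AS2, measured 7.83, 7.78, 9.09 and 8.04 against 4.72, 3.06, 3.93 and 3.74. The groups did not overlap, and the highest mean of the other cytokine groups was 4.54 (IL13), as the plot of values by library shows. The log2 change was 1.00 ± 0.26 (adjusted p = 0.00862), and the call held in all 19 alternatives (0.80 to 1.26, highest adjusted p = 0.0490). The peak holds both an AP-1 and a STAT match in its 500 bases. The lowered distal HOXA11-named peak chr7:27189237-27189736 measured 4.82, 3.75, 4.34 and 3.98 against 5.58, 7.64, 9.73 and 8.44 (-0.80 ± 0.22, adjusted p = 0.0219) and was not called with a GC correction, which left -0.64 (adjusted p = 0.0950). The other lowered peaks were too weak for the naming rule and are given because the count is small. The HOXD9-named chr2:176118845-176119344 in a HOXD10 exon was at 0 in all 4 OSM libraries against 1.02, 0.488, 0.905 and 0.560. Its unstimulated mean was 1.81 times the mean 3-read level of the OSM libraries. That ratio leaves out the error of the unstimulated values, of which replicate 2 (0.488) lay below its own 3-read level of 0.569. The HOXC8-named chr12:54004766-54005265 stood at 0.144, 0.329, 0 and 0 against 0.860, 0.708, 0.902 and 1.12. Neither the HOXD9-named nor the HOXC8-named peak was called with a GC correction (adjusted p = 0.0699 and 0.123). All 3 lowered peaks had negative estimates under all 10 cytokines, from -0.80 to -0.28 at the HOXA11-named, -1.29 to -0.51 at the HOXD9-named and -1.20 to -0.57 at the HOXC8-named peak.

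IFNG, the type II interferon, raised 2 and lowered 2 HOX peaks, beside 1.48% and 0.275% of all peaks. The HOXA13-named peak chr7:27201293-27201792, which lies in an exon of HOTTIP, a non-coding RNA gene next to HOXA13, measured 1.35, 2.99, 2.60 and 1.48 against 1.57, 0.051, 0 and 0.643 (1.48 ± 0.36, adjusted p = 0.00607). Unstimulated replicate 1 lay inside the IFNG range, and the others were at or below 0.643. IL13 raised the same peak to 1.53, 1.84, 1.36 and 1.83 (1.25 ± 0.36, adjusted p = 0.0450), and IL13 had 2 raised and 0 lowered HOX peaks, beside 0.730% and 0.880% of all peaks. The IL13 call was lost in 7 of 8 fits that left out a library. Estimates at this peak were positive for all 10 cytokines, from 0.73 to 1.48. The exonic HOXB4 peak chr17:48575577-48576076 measured 6.17, 9.56, 10.7 and 7.04 under IFNG against 5.17, 5.04, 1.93 and 3.64, without overlap (1.04 ± 0.26, adjusted p = 0.00872). The HOXA9 promoter peak chr7:27175173-27175672 was lowered to 3.12, 4.89, 3.08 and 4.26 from 7.35, 7.07, 8.53 and 5.97, also without overlap (-0.85 ± 0.23, adjusted p = 0.0242), with negative estimates for all 10 cytokines (-0.85 to -0.02). The HOXB6 peak chr17:48603806-48604305 was lowered to 1.87, 2.98, 1.29 and 1.36 from 4.01, 4.75, 4.41 and 3.03 (-0.97 ± 0.29, adjusted p = 0.050 after rounding), a call that held in only 8 of 19 alternatives. For each of the IFNG calls, at least 3 single libraries ended the call when left out.

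TNF, like IL1B an activator of NF-kB, raised 1 and lowered 2 HOX peaks, beside 2.67% and 1.69% of all peaks. Besides the HOXA10-exon peak and the distal HOXB1 peak above, the HOXB4 exonic peak chr17:48576729-48577228 was lowered to 3.38, 4.31, 2.70 and 3.96 from 5.62, 6.38, 6.01 and 7.86, with no overlap (-0.78 ± 0.23, adjusted p = 0.0231), a call lost with a GC correction, which left the change at -0.71 (adjusted p = 0.0583). For IL6, IL17A and IL22, limma called 0 of 278 HOX peaks, beside 0.0427% raised and 0.0643% lowered of all peaks for IL6, 0.0329% and 0.00688% for IL17A, and 0.0344% and 0.00221% for IL22. At an unadjusted p under 0.05 the counts were 20, 20 and 16 HOX peaks (7.19%, 7.19% and 5.76%, beside 8.65%, 6.45% and 7.15% of all peaks). No other tool was run, because the values are not counts.

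**Figure D3:**
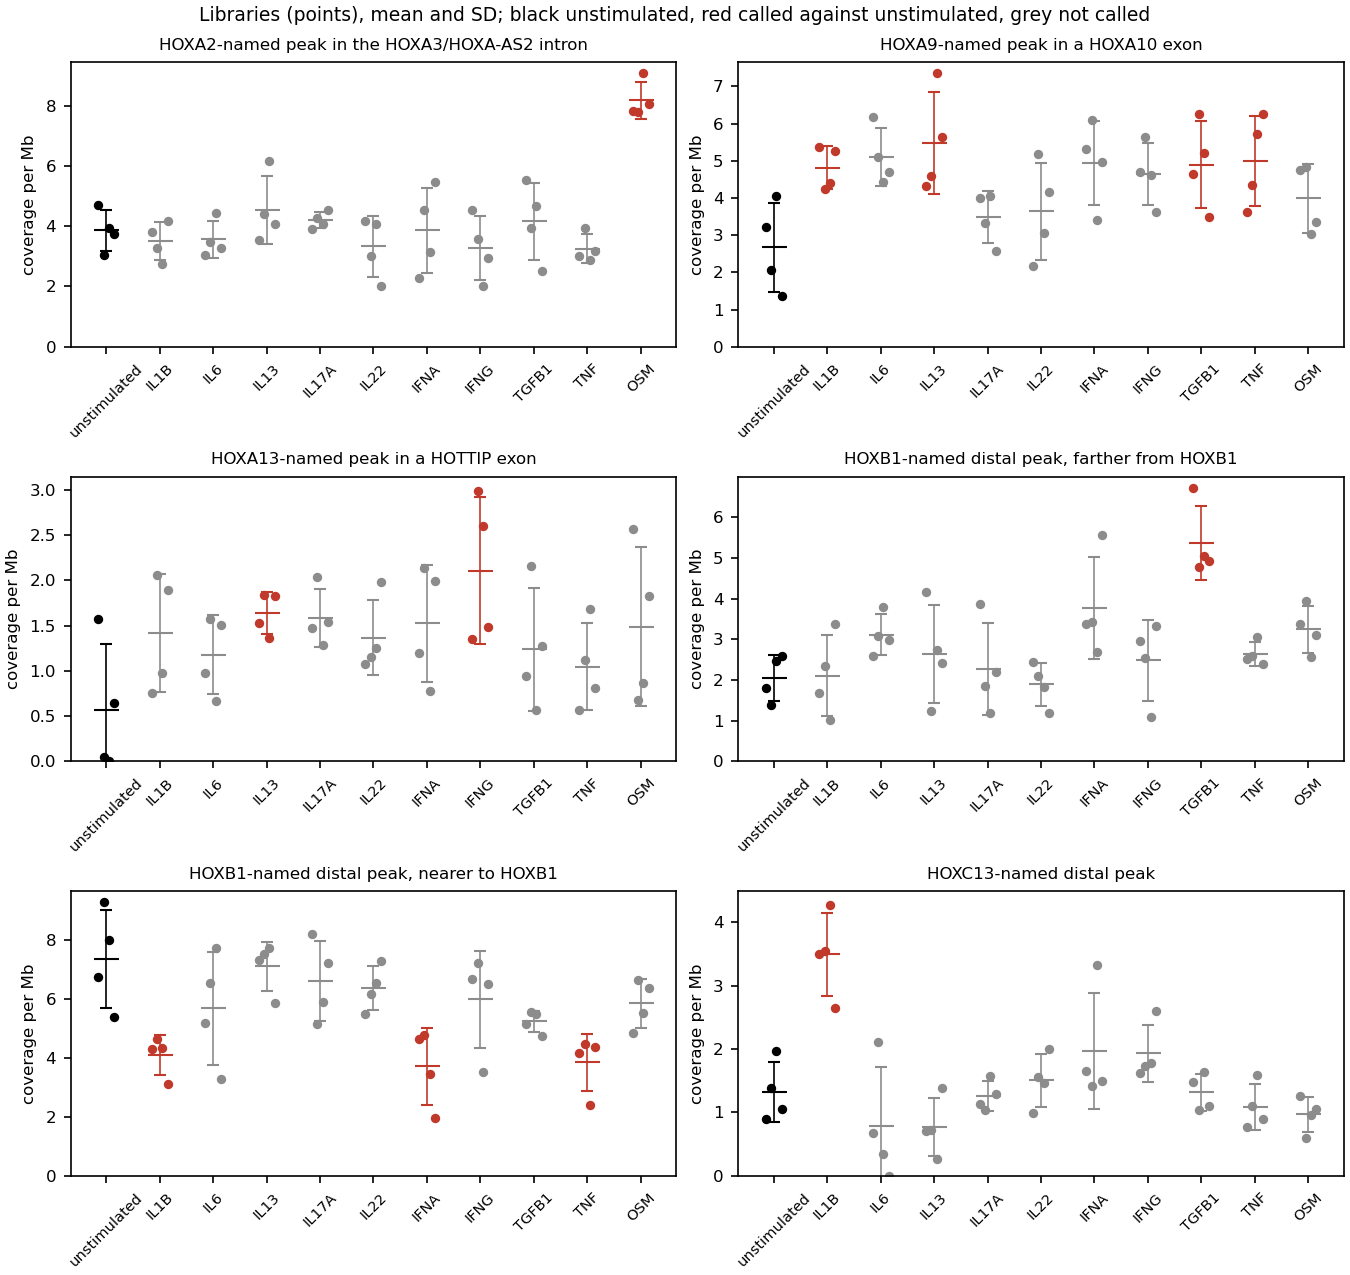
Coverage per Mb in each of the 44 libraries (points) with mean and SD bars for 6 called HOX peaks; groups are on the horizontal axis, unstimulated libraries black, groups called against them red and other groups grey. The 4 OSM libraries lie above all others at the HOXA2-named intronic peak (7.78 to 9.09); at the farther HOXB1-named peak the TGFB1 libraries (4.78 to 6.71) lie above all but 1 IFNA library, and at the HOXA10-exon peak the unstimulated group is the lowest of 11.

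Cytokines were also set against each other, with TNF as the comparison group. Against TNF, OSM raised 2 HOX peaks and lowered 0, beside 2.46% and 3.23% of all peaks, and both lie in HOXA3. They were the intronic chr7:27111210-27111709, with 3.02, 3.95, 2.87 and 3.18 under TNF (1.21 ± 0.26, adjusted p = 0.000195, called in all 19 alternatives), and chr7:27107460-27107959 in an exon of HOXA3 with untranslated sequence, at 6.99, 5.98, 8.08 and 5.31 against 3.68, 2.32, 4.43 and 2.48 (0.95 ± 0.26, adjusted p = 0.00943). Against TNF, TGFB1 had 3 higher and 0 lower HOX peaks, beside 1.99% and 1.99%. They included the HOXB7-named chr17:48672167-48672666 in LINC02086 (3.13 ± 0.81 against 1.16 ± 0.18, 1.11 ± 0.34, adjusted p = 0.0338) and the HOXB4 exonic peak that TNF lowered (6.19 ± 0.76 against 3.59 ± 0.71, 0.72 ± 0.23, adjusted p = 0.0466). Neither of these calls held with a GC correction, and they held in 10 (HOXB7-named) and 7 (HOXB4) of 19 alternatives. Between IL1B and TNF only the distal HOXC13-named peak differed (1 higher and 0 lower, beside 0.316% and 1.00%), with 0.772, 1.10, 1.58 and 0.892 under TNF (1.34 ± 0.35, adjusted p = 0.0203). That call held in 12 of 19 alternatives and in 2 of the 8 fits that left out a library. It was lost with a pseudocount of 0.1.

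**Figure D4:**
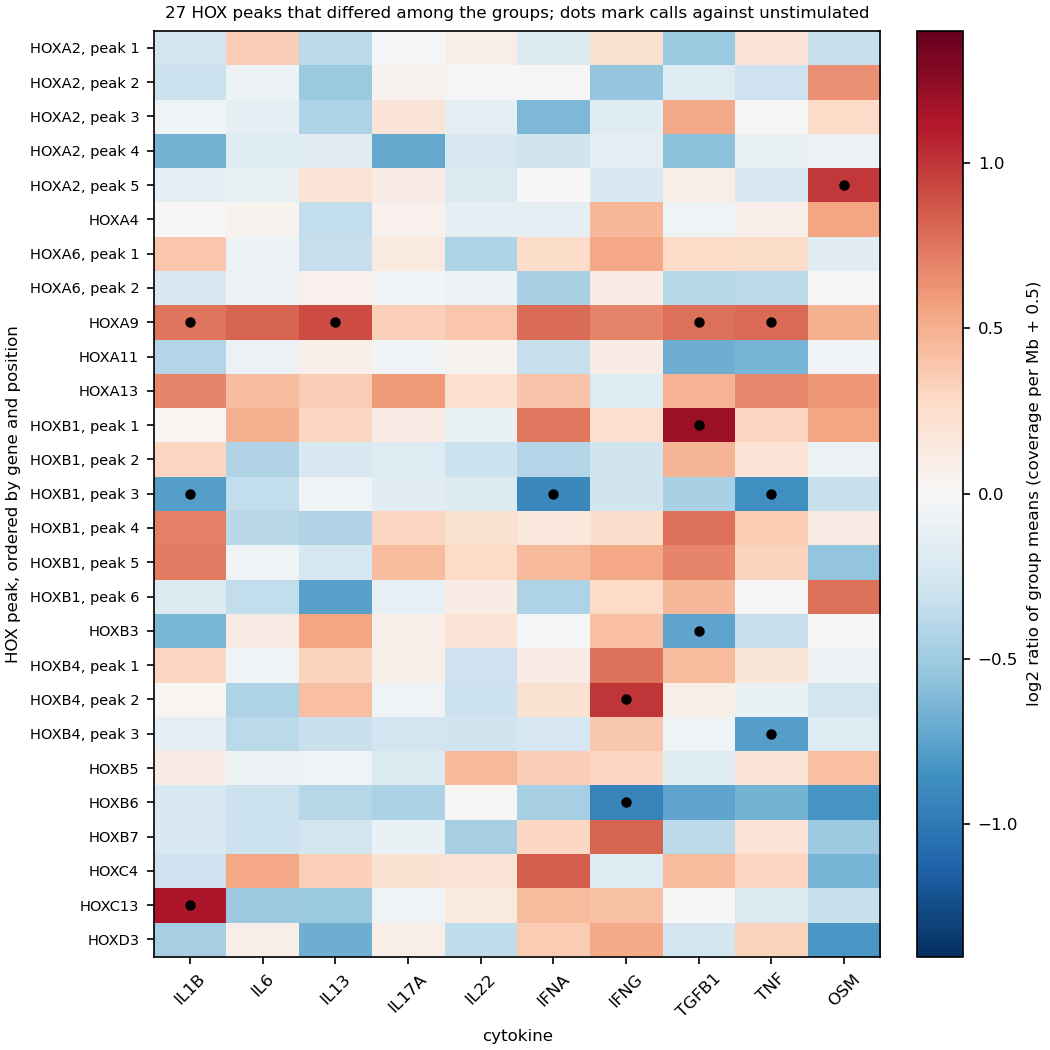
Log2 ratio of group means to the unstimulated mean (colour; coverage per Mb plus 0.5) for 27 of the 28 HOX peaks that differed among the 11 groups by the F test (rows, ordered by gene and position) under 10 cytokines (columns); black dots mark calls against unstimulated libraries. The HOXA9-named row is above 0 in every column, the HOXC13 row stands out under IL1B, and the ratios range from -0.94 to 1.20.

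The peaks that differed among groups included several with no call against unstimulated libraries, named here after their values were seen. The distal HOXB1-named peak chr17:48505763-48506262 ranged from 2.66 ± 0.91 under IL13 to 6.74 ± 0.35 under TGFB1 (F test adjusted p = 3.32e-05), with 3.74 ± 1.03 unstimulated. Its neighbour chr17:48510809-48511308 ranged from 1.55 ± 0.85 under IL13 to 5.42 ± 0.92 under OSM (adjusted p = 9.34e-05). At HOXA11 the promoter-class peak chr7:27186488-27186987 ranged from 3.76 ± 1.07 under TGFB1 to 6.86 ± 1.27 under IFNG (adjusted p = 0.00263), and the HOXB5 promoter peak from 6.95 ± 1.67 under IL17A to 11.2 ± 1.25 under IL22 (adjusted p = 0.00662).

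GC averaged 54.0% over the HOX peaks and 46.7% over the whole set. The HOX peaks held fewer AP-1 letters than peaks at large: 28 of 278 (10.1%) had a TGANTCA match, beside 25.7% of all peaks of that length and 13.5% of other promoter-class peaks. For the other motifs the reading depended on the set beside them. Shares were 14.4% for STAT (17.2% of all and 12.9% of other promoter-class peaks), 2.16% for NF-kB (3.28% and 2.74%) and 30.6% for SMAD (33.2% and 26.1%). They were 6.84% for PBX-HOX (9.35% and 4.53%) and 24.5% for the posterior HOX motif (24.4% and 15.7%). Among the 7 HOX peaks raised by at least 1 cytokine, 5 held an AP-1 match, and among the 8 lowered ones, 0 did; with so few peaks, chosen by their change, this is a description only. A match to these letters is not evidence of a bound factor.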

How the data were processed

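ATAC-seq was performed on 44 libraries of Ccd18-Co. Per the study's methods the authors ran the ENCODE pipeline for ATAC-seq on hg38, with MACS2 as peak caller, and how the 407383 peaks were chosen is not given in the sources used here. The deposited values are signal: read coverage in bases summed over each 500-base peak, with no normalization by the authors, so that 1 read adds up to 75. Deposited starts were read as 0-based, which gives 500 bases, and coordinates are printed 1-based. All peaks lie inside the hg38 chromosomes. Genes and exons came from GENCODE v44.

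Coverage was divided by the library's summed coverage in Mb and a trimmed-mean composition factor (0.950 to 1.03), and log2(value + 0.5) was tested with limma 3.58.1 in R 4.3.3 over all 44 libraries, with group as the only term and moderated by a mean trend. A peak was kept where the log2 of its mean level exceeded -3 (407176, with all 278 HOX peaks; 207 were left out), Benjamini-Hochberg adjustment ran over all of them, and a peak was called at an adjusted p under 0.05. Fold changes are on the log2(value + 0.5) scale, which understates changes of weak peaks. The script was tested on simulated data. The study tested counts, which these values are not, so no count model was used.

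The HOX peaks, gene lists and tests were chosen with earlier results of these data known. For naming by level, the promoter-class peak with the highest unstimulated mean was taken for each gene, with library values for the highest and lowest gene of each cluster. For naming by change, up to 3 raised and 3 lowered called peaks per cytokine were named, if a group mean reached 1. Lists were HOX-cluster non-coding genes, cofactors, ParaHox genes, neighbouring genes, chromatin regulators, and fibroblast, epithelial, immune, endothelial, muscle, and glial and neuronal markers. Alternatives were median-of-ratios and loess scaling, library totals, quality weights, pseudocounts of 0.1 and 2, no filter, a replicate block, a GC correction with and without it, only the groups compared, and leaving out each library. Intervals for reads cover counting error only. Some named peaks and sequences are not reported here.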

Additional observations from a re-analysis of the deposited data

Results flagged for a closer look

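Among 85 groups of 4 libraries examined at the named HOX peaks and for the cluster medians, 5 held a library far from the other 3 by Dixon's criterion, and chance alone would mark about 1 in 20 groups. At the distal HOXB1-named peak chr17:48503664-48504163, TNF replicate 3 was at 2.40 while the others lay between 4.17 and 4.46. At chr17:48497045-48497544, TGFB1 replicate 1 was at 6.71 and the others between 4.78 and 5.04. At the HOXB4 exonic peak chr17:48576729-48577228, TGFB1 replicate 4 was at 7.32 and the others between 5.76 and 5.88. The median over HOXA promoter-class peaks was 2.12 in IL22 replicate 1 against 2.48 to 2.51 in the others, and the HOXB promoter median was 1.63 in OSM replicate 4 against 0.608 to 0.699.

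At the 5 peaks given here, cytokines differed directly from TNF by limma's test of the difference itself. The HOXC13-named distal peak differed between IL1B and TNF by a log2 difference of 1.34. TGFB1 exceeded TNF by 0.72 at the HOXB4 exonic peak and by 1.11 at the HOXB7-named peak in LINC02086. OSM exceeded TNF by 0.95 at the HOXA3 exon peak chr7:27107460-27107959 and by 1.21 at the HOXA3 intron.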

How the results depend on the processing

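None of the 475 alternative values for the 25 named peak results changed sign. The median change of the HOX peaks under TGFB1 did, from 0.06 to -0.03 with a GC correction and -0.07 with loess. So did that of OSM against TNF, from -0.11 to 0.04 with either of these. For TGFB1 against TNF it went from 0.12 to -0.02 with loess. Counts of HOX peaks called were unchanged by median-of-ratios scaling, by no filter and by the replicate block, which called 27 peaks over the 13 comparisons, the same 27 as without it. The replicate numbers did not pair the libraries, since 0 of 220 same-number pairs correlated above 0.1 and the mean was 0.003. With a GC correction the counts were 1 for IL1B (4 without it), 1 for TGFB1 against TNF (3) and 9 for OSM against TNF (2), with or without the block, and 16 of the 27 calls were shared. Quality weights gave 11 for OSM (4), 1 for IL13 (2), 2 for IFNA (1), 7 for TGFB1 against TNF and 13 for OSM against TNF. Only the groups compared gave 5 for TNF (3), 8 for TGFB1 (3), 13 for OSM, 1 for IL13 and 12 for OSM against TNF. A pseudocount of 2 gave 5 for TNF, 5 for TGFB1, 1 for IL13 and 2 for IFNA, and a pseudocount of 0.1 gave 2 for IFNA, 0 for IL1B against TNF (1) and 0 for TGFB1 against TNF. Loess gave 5 for TGFB1 and 1 for TGFB1 against TNF, and library totals 2 for IFNA. Leaving out each library gave 0 to 2 for IL1B, 0 to 3 for TNF, 1 to 4 for TGFB1, 1 to 4 for OSM, 0 to 2 for IL13, 1 to 4 for IFNG, 0 to 3 for IFNA, 0 to 1 for IL1B against TNF, 0 to 3 for TGFB1 against TNF and 1 to 4 for OSM against TNF, and it stayed 0 for IL6, IL17A and IL22. Without unstimulated replicate 2 the counts were lowest for IL1B, TNF, TGFB1, IL13, IFNG and IFNA. The cause of these differences was not tested, other than that fits with fewer libraries have fewer degrees of freedom. HOX peaks differing among groups numbered 21 to 31 without single libraries (28 with all) and 24 to 37 in the other alternatives, with 37 under quality weights. The promoter median of HOXA was 2.80 to 3.38 (3.11) and of HOXB 0.936 to 1.20 (1.05) without single libraries, and 2.61 and 1.76 over all peaks of the cluster. Of 25 named peak results 3 were called in every alternative, and of the alternative values 332 were called and 143 were not. Over all peaks the raised share of calls moved from 54.6% to 88.7% for OSM, 56.5% to 28.9% for TGFB1, 45.3% to 55.9% for IL13, 39.9% to 52.8% for IL6, 49.95% to 19.2% for TGFB1 against TNF and 43.3% to 69.7% for OSM against TNF with a GC correction, from 60.6% to 49.4% for IFNA with library totals, and from 54.6% to 43.1% for OSM and 39.9% to 64.8% for IL6 with quality weights. Depth limits what can be seen in HOXC and HOXD, where most peaks lie near 3 reads.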

Other observations

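Most HOX cofactors and chromatin regulators had an accessible promoter in these fibroblasts. Among the 7 cofactor genes with a promoter-class peak, PKNOX1 stood at 23.1 ± 1.55 (SD, n = 4), PKNOX2 at 11.7 ± 1.24, MEIS2 at 10.6 ± 1.49 and MEIS1 at 7.74 ± 0.93; these TALE homeodomain proteins bind DNA together with HOX proteins. Of 297 cofactor peaks, 67 differed among the groups (22.6%). OSM raised 9 and lowered 3 of them (beside 1.55% and 1.29% of all peaks), IL1B raised 7 and lowered 7 (1.72% and 1.79%), and TNF raised 6 and lowered 4 (2.67% and 1.69%). Of 214 peaks of 13 chromatin regulators, 49 differed (22.9%), with 7 raised and 2 lowered by TGFB1 (beside 1.98% and 1.52% of all peaks). Their promoters were open at the Polycomb genes EZH2 (9.23 ± 1.49), SUZ12 (17.4 ± 2.86) and EED (8.55 ± 2.87) and at the trithorax gene KMT2A (17.8 ± 4.36), and low at CBX8 (0.290 ± 0.196), a Polycomb subunit.

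ParaHox genes, relatives of the HOX genes, had 99 peaks, of which 22 differed (22.2%), and IL1B raised 4 and lowered 2 (beside 1.72% and 1.79%). Of the 6 listed, 5 had a peak and CDX2 had none. Among the 3 with a promoter-class peak, GSX1 stood highest at 3.96 ± 0.30, and CDX1, an intestinal epithelial factor, at 1.37 ± 0.57. Genes next to the clusters had 128 peaks, of which 23 differed (18.0%), with promoter levels from 0.215 ± 0.186 at SKAP1 to 7.20 ± 0.72 at MTX2. Of the 101 peaks of non-coding HOX-cluster genes 14 differed (13.9%), with 0 raised and 5 lowered by TNF (beside 2.67% and 1.69%), 3 raised and 0 lowered by TGFB1 (1.98% and 1.52%), and 0 raised and 3 lowered by IL1B (1.72% and 1.79%). Among the marker lists, 177 of 420 fibroblast peaks differed (42.1%), 13 of 57 epithelial, 8 of 41 immune, 70 of 298 endothelial, 13 of 88 muscle, and 4 of 71 glial and neuronal peaks. The shares that differed among the groups stand beside 21.1% of all tested peaks.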
